A study of Mus musculus with 9 samples.

Results

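The proteasome genes were followed across leukaemic and wild type myeloid progenitors of the mouse. The set held every gene whose single annotated symbol starts with Psma, Psmb, Psmc, Psmd, Psme, Psmf or Psmg followed by a number, which gave 49 of the 18194 genes that the arrays measure under 1 symbol. Of these, 47 code for subunits, activators, an inhibitor or assembly chaperones of the proteasome, and Psmc3ip and Psme3ip1 matched by symbol only. The cells were FrII progenitors, sorted as Lin-, Sca-1-, c-Kit+ and Mac1 low or positive; the labels give blood as the tissue and 2 to 4 months as the age. The 9 arrays were 3 of K/L leukaemic mice, whose leukaemia carries bi-allelic Cebpa mutations, 3 of leukaemic mice that overexpress Sox4, and 3 of wild type mice. All were of the C57/BL6 strain per the labels. The gate of the leukaemic samples also names CD45.1-negative and CD45.2-positive cells, and the labels say neither how Sox4 was overexpressed nor whether the leukaemias of a group arose separately. The titles number each array after the word mice, and do not say whether an array holds 1 mouse or a pool. The spread behind each p-value is that among the arrays of this study.

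The proteasome is the barrel-shaped protease that breaks down proteins tagged with ubiquitin. Its 20S core is built from outer rings of alpha subunits and inner rings of beta subunits, and the catalytic work is done by Psmb5, Psmb6 and Psmb7. In immune cells and after interferon, these are replaced in new particles by Psmb8 (LMP7), Psmb9 (LMP2) and Psmb10 (MECL-1), which gives the immunoproteasome, and the PA28 ring of Psme1 and Psme2 can cap the core. Immunoproteasomes change the mix of peptides that is loaded on MHC class I, and they are abundant in cells of the blood.

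The promoters of the inducible subunits are shown because those genes were all higher in both leukaemias. Sequences are RefSeq windows of build GRCm38.p6, from 250 bases before to 50 bases after each annotated start, and 42 genes (Psme2 included) had a window that was searched. Psmb9 and Tap1, which codes for a chain of the peptide transporter, are neighbours that are read away from each other on chromosome 17, so that 1 stretch of 225 bases lies upstream of both. In the Psmb8 stretch the capitals mark a match to the core of the gamma-interferon activated site, TTCNNNGAA, and in the Psme1 stretch a match, read on the other strand, to the core of the interferon-stimulated response element, which is GAAA, any 2 bases and GAAA again.
Psmb9 to Tap1, chr17:34187331-34187555, plus strand: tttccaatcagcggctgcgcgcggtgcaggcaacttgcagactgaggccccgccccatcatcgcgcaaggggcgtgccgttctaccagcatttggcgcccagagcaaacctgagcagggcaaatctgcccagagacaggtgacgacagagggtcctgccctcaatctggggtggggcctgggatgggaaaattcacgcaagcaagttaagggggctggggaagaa
Psmb8 upstream, chr17:34198045-34198194, plus strand: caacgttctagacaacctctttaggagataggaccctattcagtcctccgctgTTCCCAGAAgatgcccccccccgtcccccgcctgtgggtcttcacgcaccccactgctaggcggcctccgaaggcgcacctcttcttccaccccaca
Psme1 start, chr14:55578493-55578522, plus strand: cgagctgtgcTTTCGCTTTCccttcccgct

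The match in Psmb8 begins at position -97 and that in Psme1 at position 10, counted from the annotated start. Among the 6 windows of the 5 inducible genes, the response element core occurred in 1 and TTCNNNGAA in 1, against 4 and 2 of the 40 windows of other members. Over all 32851 windows, 3.44% held the response element core and 8.3% held TTCNNNGAA on either strand. The antioxidant response element core TGACNNNGC, the C/EBP core TTGCNNAA, the Sox core AACAAAG and the NF-kB motif each occurred in 0 of the 6 inducible windows, and in 6, 5, 1 and 6 of the 40 other windows. Their shares of all windows were 12.4%, 10.8%, 5.85% and 8.46%. The member counts cover only the 42 genes with a searched window (Psme2 included), and give no reading of the remaining members. Psma8 and Psmg2, which lie on chromosome 18, were left out of the member counts, while the shares of all windows did not leave that chromosome out. A match is a description of letters and not a bound site.

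Values below are log2 intensities of 1 probe set a gene, that with the highest mean over the 9 arrays. Array medians lay between 43.07 and 46.79 on the linear scale. Wild type array 3 stood apart from the other wild type arrays, with 404 to 500 genes past 2-fold against them, where other pairs of 1 group had 18 to 68. The 3′ to 5′ signal ratio of Gapdh, a measure of RNA quality, was 1.93 to 2.00 in K/L, 2.22 to 2.44 in Sox4 arrays, against 2.68 to 2.91 in the wild type, and its part in the results was not tested. The same ratio of actin overlapped, at 0.866 to 0.913 in K/L, 0.881 to 0.915 in Sox4 and 0.885 to 0.976 on the wild type arrays. As a check of the labels, Sox4 averaged 10.67 in K/L, 9.74 in Sox4 and 3.87 in wild type arrays, and Cebpa averaged 10.56, 10.58 and 9.59 in the same order. Sox4 was thus not highest on the arrays labelled for it, and the check tells only leukaemic from wild type arrays. Of the gate's genes, Kit lay between 9.10 and 9.36 on all arrays, while Itgam (Mac1) was below the 40th percentile in both leukaemias, at 3.70 to 4.02 in K/L and 3.97 to 4.47 in Sox4 arrays.

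All 4 measured genes of the immunoproteasome set were higher in both leukaemias than in wild type cells. Psmb9, the inducible counterpart of Psmb6, rose most of them, by 2.66-fold in K/L and 2.73-fold in Sox4 cells. It had 10.85, 11.04 and 10.90 on the K/L arrays and 10.99, 10.87 and 11.04 on the Sox4 arrays, against 9.35, 9.52 and 9.69 on the wild type arrays. Every leukaemic array lay above every wild type array, by a log2 difference of 1.41 ± 0.11 (SE) in K/L with an adjusted p of 6.71e-06 and of 1.45 ± 0.11 in Sox4 with an adjusted p of 6.09e-06 (limma, n = 3 arrays a group).

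Psmb8 replaces Psmb5 in the immunoproteasome. It had 11.26, 11.35 and 11.27 on the K/L arrays and 11.50, 11.49 and 11.39 on the Sox4 arrays, against 10.45, 10.44 and 10.63 on the wild type arrays. The groups of leukaemic and wild type arrays did not overlap, and the differences were 0.79 ± 0.09 in K/L (adjusted p = 8.05e-05) and 0.96 ± 0.09 in Sox4 (adjusted p = 2.5e-05). Psmb10, the counterpart of Psmb7, had 9.46, 9.34 and 9.45 on the K/L arrays and 9.19, 9.49 and 9.44 on the Sox4 arrays, against 8.58, 8.90 and 8.81 on the wild type arrays. Its lowest leukaemic value, on Sox4 array 1, was still above all wild type values, and it was higher by 0.65 ± 0.12 in K/L (adjusted p = 0.00135) and by 0.61 ± 0.12 in Sox4 (adjusted p = 0.00218).

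Psme1, the alpha chain of the PA28 cap, had 12.11, 12.14 and 12.16 on the K/L arrays and 12.07, 12.04 and 12.08 on the Sox4 arrays, against 11.51, 11.49 and 11.28 on the wild type arrays. It was higher by 0.71 ± 0.09 in K/L (adjusted p = 0.000155) and by 0.64 ± 0.09 in Sox4 (adjusted p = 0.000337), again with no overlap. Over all genes tested, the groups did not overlap in 57.9% of genes for K/L and 56.1% for Sox4 against wild type, so separation alone was common on these arrays. Without wild type array 3, the 4 differences were 1.5, 0.85, 0.67 and 0.64 in K/L and 1.54, 1.02, 0.63 and 0.56 in Sox4 for Psmb9, Psmb8, Psmb10 and Psme1 in turn, each still past the test. Their calls held under all 19 alternatives that were run.

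The fifth gene of the set, Psme2, the beta chain of PA28, was on the arrays only through a probe set that is annotated to both Psme2 and Psme2b, so its signal was assigned to neither. That probe set had 10.49, 10.53 and 10.62 on the K/L arrays and 10.65, 10.58 and 10.62 on the Sox4 arrays, against 9.99, 9.89 and 9.99 on the wild type arrays. The leukaemic arrays were all above the wild type arrays, by 0.59 in K/L and 0.66 in Sox4, and no test was made of it.

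Markers of other blood cells moved along with these genes in part. The summed level of the 12 monocyte, macrophage and dendritic markers, all measured, was 11.36 to 11.69 in K/L and 12.43 to 12.52 in Sox4, against 10.73 to 10.76 in wild type arrays on the log2 scale. In that list Cx3cr1 was below the 40th percentile in K/L arrays and H2-Aa in wild type arrays. Taken singly, 4 of the 12 rose and 1 fell in K/L, and 9 rose and 1 fell in Sox4. These are 41.7% and 83.3% of the list, against 50.3% and 47.7% of all genes. The 6 measured of 7 B and plasma cell markers summed to 10.12 to 10.28 in K/L and 10.10 to 10.30 in Sox4, against 8.61 to 9.07 in wild type arrays, with Ms4a1 and Jchain below the 40th percentile in all 3 groups and Cd79a in Sox4 arrays. Of the 4 tested, 3 rose and 0 fell in K/L, and 2 rose and 1 fell in Sox4, with Sox4 differences from -0.63 to 1.90. Those calls are 75.0% of the tested markers in each leukaemia, against 50.3% and 47.7% of all genes. The 8 measured of 10 T and NK cell markers had closer sums, with a highest value of 11.26 in Sox4 and of 11.20 in wild type arrays and a lowest of 10.91 in K/L arrays, and Cd3g, Ncr1 and Gzma were below the 40th percentile in all 3 groups. The 10 granulocyte and myeloid progenitor markers, all measured, summed to 14.84 to 14.90 in K/L and 15.44 to 15.46 in Sox4, against 15.68 to 15.76 in wild type arrays. Single markers of this list ran both ways, as 1 rose and 5 fell in K/L, and 4 rose and 2 fell in Sox4. That is 60.0% of the list in each leukaemia, against 50.3% and 47.7% of all genes. The median differences were -0.77 in K/L and 0.23 in Sox4. The part of these markers in the immunoproteasome result was not tested, and in bulk RNA more cells of a type and more RNA per cell cannot be told apart.

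**Figure D1:**
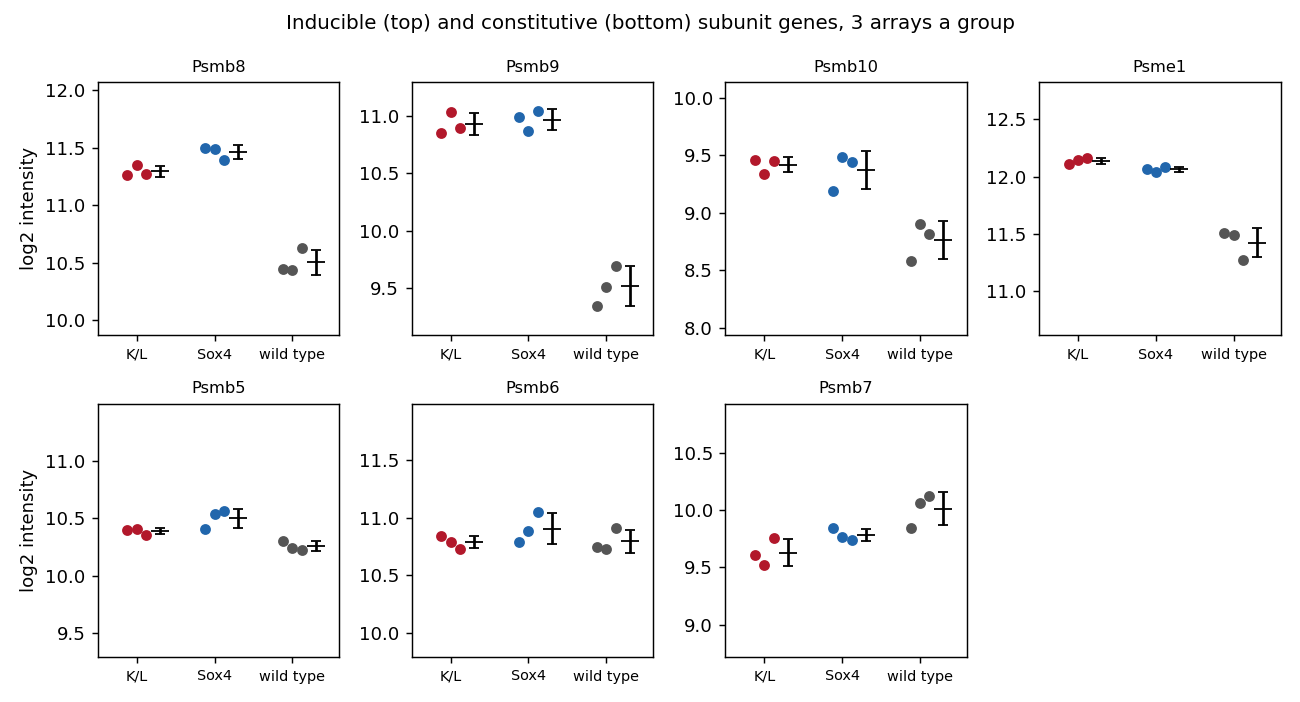
Log2 intensity on each array (points) of the inducible genes Psmb8, Psmb9, Psmb10 and Psme1 (top) and of the constitutive catalytic genes Psmb5, Psmb6 and Psmb7 (bottom), in K/L, Sox4 and wild type cells, with the mean ± SD of 3 arrays beside the points; all panels span the same log2 range. The inducible genes sit higher on all 6 leukaemic arrays than on the 3 wild type arrays, whereas the groups of Psmb6 overlap.

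The constitutive catalytic genes did not move in the same way. Psmb5, the chymotrypsin-like subunit, had 10.40, 10.41 and 10.36 on the K/L arrays and 10.40, 10.54 and 10.56 on the Sox4 arrays, against 10.30, 10.24 and 10.23 on the wild type arrays. Both leukaemias lay above wild type without overlap, but by small amounts: 0.13 ± 0.09 in K/L (adjusted p = 0.231) and 0.24 ± 0.09 in Sox4 (adjusted p = 0.0404). The Sox4 call was lost in 8 of 9 fits that left out 1 array, all but that without Sox4 array 1, with an adjusted p of up to 0.13. Psmb6, the caspase-like subunit, had 10.84, 10.79 and 10.73 on the K/L arrays and 10.78, 10.88 and 11.05 on the Sox4 arrays, against 10.74, 10.73 and 10.91 on the wild type arrays. Its groups overlapped, with differences of -0.01 ± 0.10 in K/L (95% interval -0.23 to 0.22) and 0.11 ± 0.10 in Sox4 (-0.12 to 0.34).

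Psmb7, the trypsin-like subunit, ran the other way in K/L. It had 9.61, 9.52 and 9.76 on the K/L arrays and 9.84, 9.77 and 9.74 on the Sox4 arrays, against 9.85, 10.07 and 10.12 on the wild type arrays. It was lower by -0.38 ± 0.11 in K/L (adjusted p = 0.013), which missed the threshold without K/L array 2 (adjusted p = 0.0523), and the Sox4 difference of -0.23 ± 0.11 did not pass the test (adjusted p = 0.102).

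Of the 48 tested members, 18 passed the test in K/L against wild type cells, 8 higher and 10 lower, where 50.3% of all 12866 tested genes passed. In Sox4 against wild type cells 19 members passed, 9 higher and 10 lower, where 47.7% of all genes passed. The higher count in Sox4 includes Psma8, which passed the filter only through the Sox4 arrays. The shares of members, 37.5% and 39.6%, were below those of all genes. Without wild type array 3 the counts were 10 higher and 9 lower in K/L, and 8 higher and 8 lower in Sox4. Without K/L array 2 only 6 members were lower in K/L. With each array centred on its median, which moved the median of all genes from 0.05 to 0.15 in K/L, the K/L split was 12 higher and 7 lower.

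Set against each other, the 4 inducible genes had a median difference of 0.75 in K/L and 0.80 in Sox4, while the other 44 tested members had -0.01 and -0.05 and all tested genes 0.05 and 0.03. The mean difference of the inducible genes exceeded that of the other members by 0.96 in K/L and by 0.92 in Sox4. No other member lay at or above the lowest inducible gene in K/L, and in Sox4 Psma8 was the 1 member that did. The margin was small: the lid gene Psmd3 was higher by 0.61 ± 0.09 in K/L and 0.59 ± 0.09 in Sox4. Psmb10, the lowest inducible gene, was higher by 0.65 ± 0.12 and 0.61 ± 0.12, so these 2 genes were not set apart. Both comparisons share the wild type arrays. Only Psmb9 was past the test and 2-fold in K/L, and Psma8, Psmb9 and Psme4 were in Sox4, where 16.6% and 15.5% of all genes were.

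**Figure D2:**
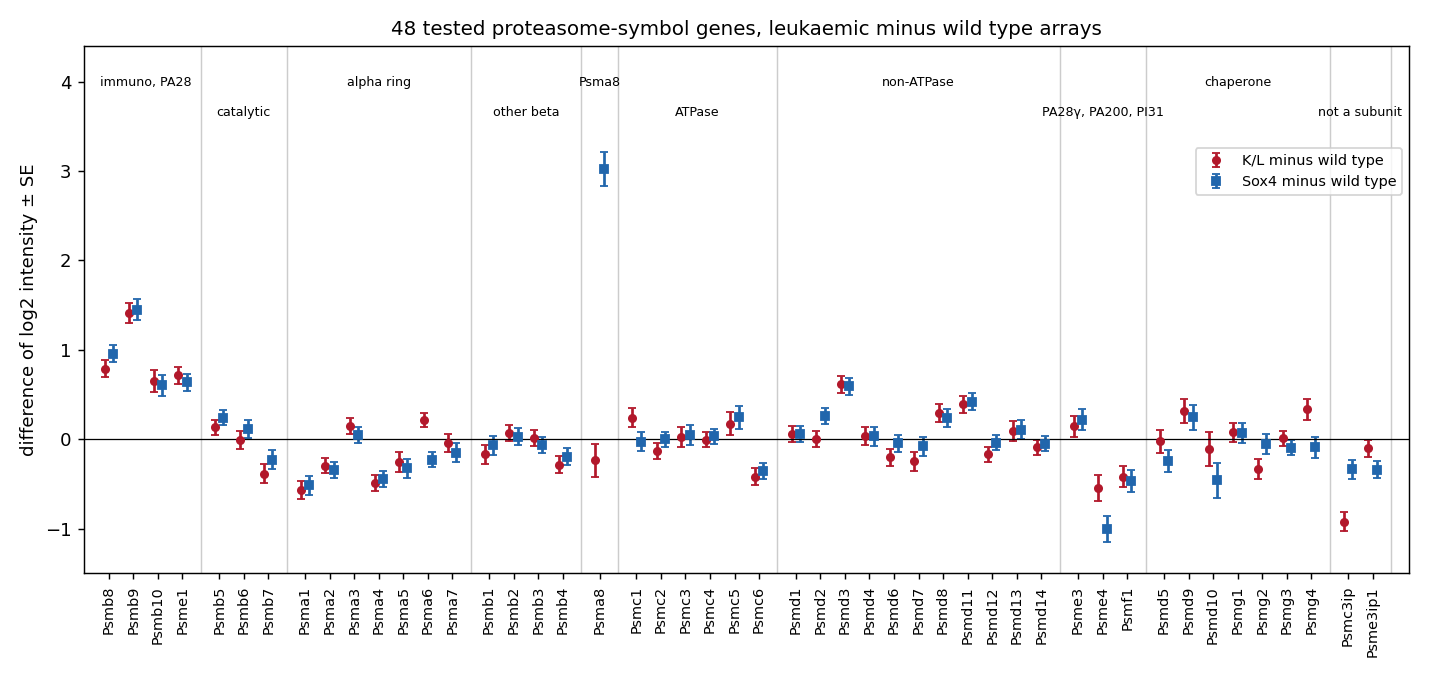
Difference of log2 intensity (± SE) between K/L and wild type cells (red circles) and Sox4 and wild type cells (blue squares) for the 48 tested members, ordered by role. The inducible genes at the left lie between 0.61 and 1.45, Psma8 reaches 3.02 in Sox4 against wild type values below the 40th percentile, and Psme4 lies lowest in Sox4 at -1.0.

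In the alpha ring, which forms the gate of the core, every call against wild type on the probe sets used was lower. In K/L, 3 of its 7 genes fell and 0 rose, and in Sox4 5 fell and 0 rose, where 21.6% and 21.1% of all genes were lower. Psma1 had 10.59, 10.44 and 10.49 on the K/L arrays and 10.52, 10.52 and 10.63 on the Sox4 arrays, against 11.08, 10.92 and 11.23 on the wild type arrays. The leukaemic values were all below the wild type values, by -0.57 ± 0.10 in K/L (adjusted p = 0.00135) and -0.52 ± 0.10 in Sox4 (adjusted p = 0.00253), and a second probe set was lower too, by -1.17 and -1.40. Psma4 had 10.78, 10.78 and 10.81 on the K/L arrays and 10.87, 10.86 and 10.78 on the Sox4 arrays, against 11.30, 11.16 and 11.39 on the wild type arrays. It was lower by -0.49 ± 0.09 in K/L (adjusted p = 0.00145) and by -0.45 ± 0.09 in Sox4 (adjusted p = 0.00267).

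Psma2 was lower by -0.29 in K/L (adjusted p = 0.0201) and -0.34 in Sox4 (adjusted p = 0.0102), and the K/L call was lost without K/L array 2, K/L array 3 or wild type array 1, with an adjusted p of up to 0.0742. Psma5 was lower in Sox4 by -0.33 (adjusted p = 0.0316), a call lost without any 1 of the Sox4 arrays or wild type array 3, and at -0.26 in K/L (adjusted p = 0.075). On the probe sets used, Psma6 was the alpha gene on which the leukaemias parted. It had 12.89, 12.82 and 12.80 on the K/L arrays and 12.39, 12.42 and 12.38 on the Sox4 arrays, against 12.67, 12.55 and 12.65 on the wild type arrays. K/L was thus above and Sox4 below wild type without overlap, by 0.22 ± 0.08 (adjusted p = 0.0536) and -0.23 ± 0.08 (adjusted p = 0.0451). The Sox4 call was lost in 8 of 9 fits with 1 array left out, all but that without wild type array 2, and the K/L difference passed without wild type array 3 (adjusted p = 0.0433). Its other tested probe sets were lower in Sox4 by -0.57 and -0.40, and stood at -0.03 and 0.29 in K/L, the latter past the test (adjusted p = 0.0339 over all probe sets).

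Psma3 and Psma7, the remaining alpha genes, passed in neither comparison, with differences between -0.15 and 0.14. A second probe set of Psma3 disagreed and was lower past the test, by -0.39 in K/L (adjusted p = 0.0238) and -1.02 in Sox4 (adjusted p = 0.000106). Of the structural beta genes Psmb1 to Psmb4, Psmb4 alone was called, lower by -0.28 ± 0.09 in K/L (adjusted p = 0.0268) and at -0.19 in Sox4 (adjusted p = 0.113). That call was lost without K/L array 1, K/L array 3 or wild type array 1. Psmb1, Psmb2 and Psmb3 lay between -0.17 and 0.07 in both leukaemias.

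The 19S cap binds ubiquitin chains, unfolds the protein and threads it into the core. Among its 6 ATPases, Psmc1 to Psmc6, Psmc6 was the 1 that passed the test against wild type. It had 11.03, 11.03 and 11.02 on the K/L arrays and 11.16, 11.07 and 11.03 on the Sox4 arrays, against 11.48, 11.32 and 11.53 on the wild type arrays. It fell by -0.42 ± 0.09 in K/L (adjusted p = 0.00395) and by -0.36 ± 0.09 in Sox4 (adjusted p = 0.00954), and all 3 of its probe sets were lower in both. The other ATPases lay between -0.13 and 0.25 and did not pass on the probe sets used, but a dimmer probe set of Psmc2 was lower by -0.82 in K/L (adjusted p = 0.00634) and -0.87 in Sox4 (adjusted p = 0.00481).

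Of the 11 non-ATPase genes of the cap, 3 rose and 0 fell in each leukaemia, where 28.7% of all genes were higher in K/L and 26.6% in Sox4. Psmd3, a scaffold subunit of the lid, had 8.90, 8.86 and 8.79 on the K/L arrays and 8.78, 8.85 and 8.86 on the Sox4 arrays, against 8.29, 8.32 and 8.10 on the wild type arrays. All leukaemic arrays were above all wild type arrays, by 0.61 ± 0.09 in K/L (adjusted p = 0.000444) and 0.59 ± 0.09 in Sox4 (adjusted p = 0.000568). Psmd11, a lid subunit, had 10.77, 10.88 and 10.89 on the K/L arrays and 11.001, 10.86 and 10.77 on the Sox4 arrays, against 10.52, 10.48 and 10.37 on the wild type arrays. It was higher by 0.39 ± 0.10 in K/L (adjusted p = 0.00736) and by 0.42 ± 0.10 in Sox4 (adjusted p = 0.00511). Of its 7 tested probe sets 7 were on that side in K/L, 2 of them past the test, and 6 in Sox4, 3 of them past the test.

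The third call differed between the comparisons and was weak in both. Psmd8, a lid subunit, was higher by 0.29 ± 0.10 in K/L (adjusted p = 0.0329) and at 0.24 ± 0.10 in Sox4 (adjusted p = 0.0754). Its K/L call was lost without any 1 of the K/L arrays or without wild type array 1 or 2, and it passed in Sox4 without Sox4 array 1 or wild type array 3. Psmd2, the large base subunit, was higher by 0.26 ± 0.09 in Sox4 (adjusted p = 0.0366), a call lost in 7 of 9 fits with 1 array left out, all but those without K/L array 2 or wild type array 2. In K/L it was at 0.01, and with the mean of its probe sets the Sox4 difference was 0.088 (adjusted p = 0.468). The deubiquitinase Psmd14 and the ubiquitin receptor Psmd4 lay between -0.09 and 0.03.

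Beside the 19S cap, the core can be bound by other activators. Psme4 (PA200), a nuclear activator known for its part in histone turnover, fell in both leukaemias. It had 9.43, 9.06 and 9.11 on the K/L arrays and 8.78, 8.73 and 8.73 on the Sox4 arrays, against 10.03, 9.67 and 9.55 on the wild type arrays. K/L arrays lay below wild type and Sox4 arrays below both, with differences of -0.55 ± 0.14 in K/L (adjusted p = 0.00997) and -1.0 ± 0.14 in Sox4 (adjusted p = 0.000312).

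This difference was read on 3 of its 6 probe sets that were above the 40th percentile on all 9 arrays. They were lower by -0.55, -0.60 and -0.67 in K/L and by -1.0, -0.98 and -1.15 in Sox4, each past the test, and K/L exceeded Sox4 on them by 0.46, 0.38 and 0.49. On the other 3 probe sets every K/L value, and on 2 of them every Sox4 value too, was below the 40th percentile of its array. Those 2 passed the filter only through the wild type arrays, so that lower leukaemic values were fixed by it, and no difference is given for any of the 3. Which transcripts the probe sets read was not analysed here.

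**Figure D3:**
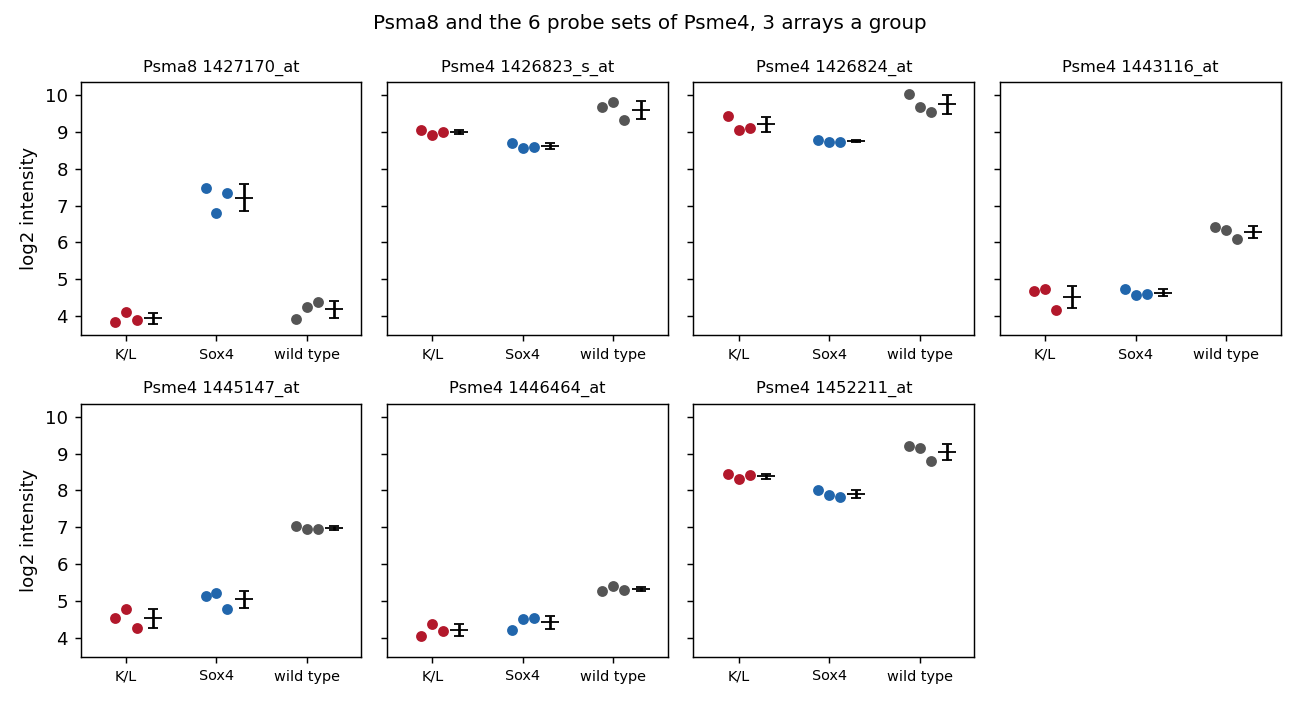
Log2 intensity on each array (points) with mean ± SD of 3 arrays for Psma8 and for the 6 probe sets of Psme4, in K/L, Sox4 and wild type cells. Psma8 is high on the 3 Sox4 arrays only, and the 3 brighter Psme4 probe sets are lower on all 6 leukaemic arrays than on the wild type arrays; the 3 dimmer ones are below the 40th percentile on the K/L arrays.

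Psmf1 (PI31), known as an inhibitor of the core in vitro and as an adaptor for its transport, had 7.33, 7.21 and 7.44 on the K/L arrays and 7.49, 7.11 and 7.24 on the Sox4 arrays, against 7.70, 7.68 and 7.87 on the wild type arrays. It was lower by -0.42 ± 0.12 in K/L (adjusted p = 0.0154) and by -0.47 ± 0.12 in Sox4 (adjusted p = 0.00947). Its probe sets disagreed in K/L, where 2 of 4 were lower and 1 was higher by 0.39 (adjusted p = 0.0117 over all probe sets), and the K/L call was lost without K/L array 2 (adjusted p = 0.0589). Psme3 (PA28 gamma), the nuclear relative of PA28, did not pass, at 0.14 ± 0.11 in K/L and 0.22 ± 0.11 in Sox4, while a second probe set was higher in Sox4 by 0.33 (adjusted p = 0.0162).

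The largest difference of any member was that of Psma8 in Sox4 cells. Psma8 codes for an alpha subunit known from the testis, where it takes the place of Psma7 in the core of male germ cells. It had 3.83, 4.11 and 3.88 on the K/L arrays and 7.48, 6.79 and 7.35 on the Sox4 arrays, against 3.92, 4.24 and 4.38 on the wild type arrays. All K/L and wild type values were below the 40th percentile of their arrays, so Psma8 passed the filter only through the Sox4 arrays and had to differ there. For that reason no test of it is given. Set against the 40th percentile of the dim arrays instead of their own values, Psma8 was at least 4.79-fold higher in Sox4 than in wild type cells and at least 5.11-fold higher in Sox4 than in K/L cells.

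Psma8 has 1 probe set on the arrays, so no second reading of it was to be had. Erythroid and megakaryocyte markers were high on the same arrays: the 6 measured of 9 summed to 8.12 to 8.16 in K/L and 10.37 or more in Sox4 arrays, against 8.14 to 8.46 in the wild type, with Pf4 at 9.82 to 10.61 in Sox4 and below the 40th percentile in the other groups, and Epor below it in all 3. Their part in the Psma8 result was not tested. Psmb11, the catalytic subunit of the thymic proteasome, was the 1 member that was not tested, with a highest value of 4.25 in K/L, 4.14 in Sox4 and 4.23 in wild type arrays.

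Assembly chaperones hold the rings and the base together while the particle is built. Of these 7 genes, 1 rose and 1 fell in K/L, and 0 passed in Sox4, where 50.3% and 47.7% of all genes passed. Psmg4 was higher in K/L, with 8.20, 8.21 and 8.36 on the K/L arrays and 7.87, 7.72 and 7.92 on the Sox4 arrays, against 7.77, 7.86 and 8.13 on the wild type arrays. The K/L difference of 0.34 ± 0.12 (adjusted p = 0.0351) was lost in 6 of 9 fits with 1 array left out, all but those without Sox4 array 2 or 3 or wild type array 3. Psmg2, the partner of Psmg1 in alpha ring assembly, was lower in K/L by -0.34 ± 0.11 (adjusted p = 0.0306) and at -0.05 in Sox4. The Psmg2 call was lost without K/L array 2, K/L array 3, wild type array 1 or wild type array 3. The base chaperones Psmd5, Psmd9 and Psmd10, at -0.46 to 0.32, did not pass. A second probe set of Psmd9 was lower in K/L by -0.98 (adjusted p = 0.00114), opposite to the 0.32 of the one used.

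Of the genes that matched by symbol only, 1 fell in K/L and both fell in Sox4. Psmc3ip (Hop2), a cofactor of strand exchange in meiotic recombination, had 9.70, 9.62 and 9.64 on the K/L arrays and 10.24, 10.38 and 10.11 on the Sox4 arrays, against 10.44, 10.62 and 10.67 on the wild type arrays. It was lower by -0.92 ± 0.10 in K/L (adjusted p = 6.6e-05) and by -0.33 ± 0.10 in Sox4 (adjusted p = 0.0242), and the Sox4 call was lost without Sox4 array 1, Sox4 array 3 or wild type array 2. Psme3ip1, which codes for a partner of Psme3, was lower in Sox4 by -0.34 ± 0.09 (adjusted p = 0.0131), lost without Sox4 array 2 (adjusted p = 0.0561), and at -0.10 in K/L.

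Between the leukaemias few members differed on the probe sets used. Of 48 members, 5 passed in K/L against Sox4 cells, where 28.8% of all genes did. One of the 5 is Psma8, whose pass was fixed by the filter, and it alone was past 2-fold, where 9.09% of all genes were. The groups did not overlap for 10 members that were higher and 9 that were lower in K/L, against 51.1% of all genes in either direction. Psma6 was higher in K/L by 0.44 ± 0.08 (adjusted p = 0.00298), with 3 of 3 tested probe sets past the test on that side. Psme4 was higher by 0.46 ± 0.14 (adjusted p = 0.0389), a call lost without K/L array 1 or 3 or any 1 of the Sox4 arrays, and Psmg4 by 0.42 ± 0.12 (adjusted p = 0.0213), a call lost without K/L array 3, Sox4 array 1 or Sox4 array 2. Psmc3ip was lower in K/L by -0.59 ± 0.10 (adjusted p = 0.00223). The number of calls was 8 without wild type array 3, and 3 without K/L array 3 or without Sox4 array 1 or 2. Other probe sets passed for members that were not called (limma, adjusted p from 0.00428 to 0.0404 over all probe sets). Those of Psma3 and Psmd13 were higher in K/L, by 0.63 and 0.60. Those of Psmc6, Psmd9, Psmd6 and Psme3 were lower in K/L, by -0.51, -0.76, -0.32 and -0.31.

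The 4 inducible genes did not pass between the leukaemias. The 95% interval of K/L minus Sox4 was -0.37 to 0.04 for Psmb8, -0.29 to 0.21 for Psmb9, -0.22 to 0.31 for Psmb10 and -0.13 to 0.28 for Psme1. Psmb8 was lower on every K/L array than on every Sox4 array, by -0.17 ± 0.09 (adjusted p = 0.217), and Psme1 was higher on every K/L array, by 0.08 ± 0.09 (adjusted p = 0.594). Psmd2 came near the threshold, at -0.25 ± 0.09 (adjusted p = 0.0607), and passed without wild type array 3 (adjusted p = 0.0297).

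The peptides that proteasomes make are carried by Tap1 and Tap2 and loaded on MHC class I with the help of Tapbp and Tapbpl. Of the 11 measured of 13 genes in this antigen presentation list, 6 rose and 0 fell in K/L, and 8 rose and 0 fell in Sox4, with median differences of 0.70 and 1.08 against 0.05 and 0.03 for all genes. The list's share past the test was 54.5% in K/L and 72.7% in Sox4, against 50.3% and 47.7% of all genes. Tap1 lay at 9.02 to 9.24 on the K/L arrays and 9.25 to 9.47 on the Sox4 arrays, against 7.79 to 7.98 on the wild type arrays, a difference of 1.24 ± 0.10 (adjusted p = 9.48e-06) and 1.47 ± 0.10 (adjusted p = 3.63e-06). With the mean of all its probe sets, Tap1 was higher by 0.39 in K/L and 0.37 in Sox4, still past the test. Tap2 was higher by 1.19 ± 0.12 and 1.08 ± 0.12 in K/L and Sox4, Tapbp by 1.45 ± 0.22 and 1.15 ± 0.22, and Tapbpl by 1.63 ± 0.13 and 0.94 ± 0.13. The class I heavy chain H2-D1 was higher by 1.39 ± 0.26 in K/L and 1.81 ± 0.26 in Sox4, or by 0.71 and 0.89 with the mean of its probe sets, while B2m, the light chain, was at 0.15 and 0.10 and did not pass. Nlrc5, the class I transactivator, was higher in Sox4 by 1.62 ± 0.47 (adjusted p = 0.0165), a call lost without Sox4 array 1, wild type array 1 or wild type array 2, and was at -0.99 ± 0.47 in K/L (adjusted p = 0.105). With 1 array left out the K/L difference of Nlrc5 ran from -0.37 to -1.41, and it passed without wild type array 2 (adjusted p = 0.030).

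Part of this list is next to the inducible genes in the genome. Psmb9, Tap1, Psmb8 and Tap2 are consecutive protein-coding genes on chromosome 17, and all 4 rose in both leukaemias. Of the class II genes nearby, H2-DMa rose by 2.95 ± 0.11 in K/L and 4.06 ± 0.11 in Sox4, H2-DMb2 rose by 0.80 ± 0.23 in K/L and was at 0.55 ± 0.23 in Sox4 (adjusted p = 0.075), and H2-Ab1 rose by 1.02 ± 0.24 and 2.73 ± 0.24. Psme1 lies on chromosome 14, beside Fitm1, which did not pass, and Emc9, which rose by 0.86 ± 0.19 in K/L and 0.78 ± 0.19 in Sox4. Psmb10 lies on chromosome 8, where its neighbours Ctrl and Lcat did not pass in either leukaemia and Slc12a4 rose by 1.01 ± 0.10 in K/L and 0.92 ± 0.10 in Sox4.

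**Figure D4:**
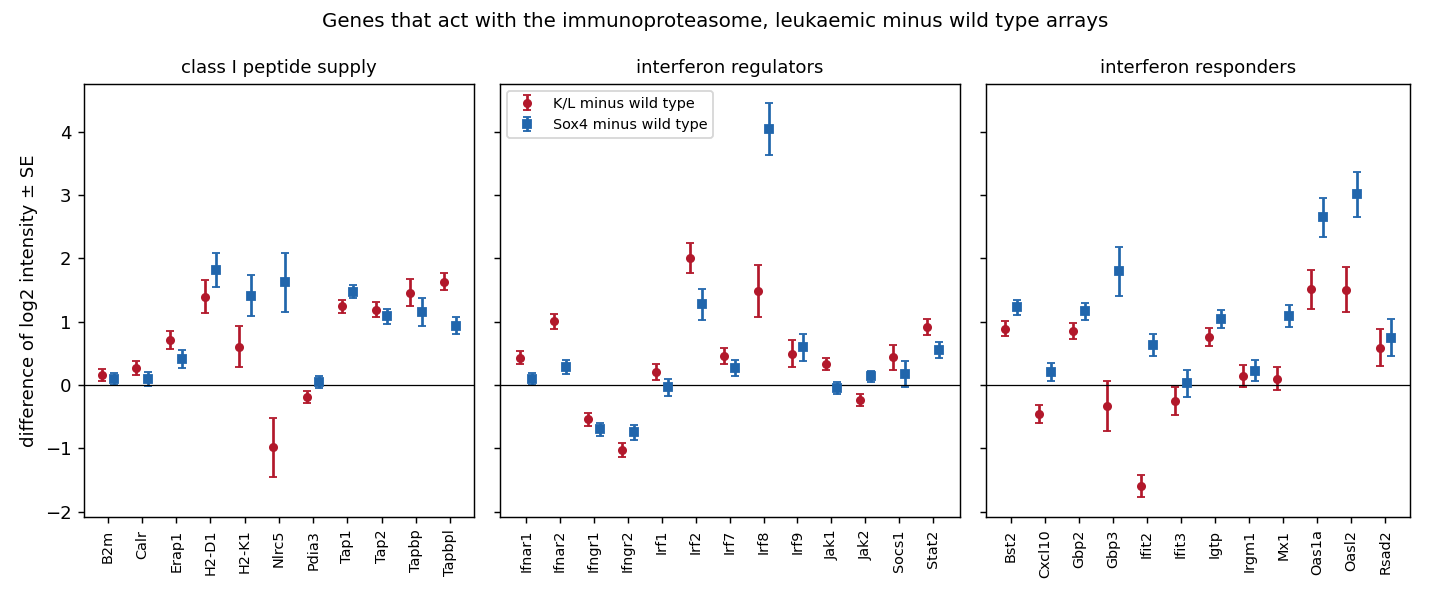
Difference of log2 intensity (± SE) between K/L and wild type cells (red circles) and Sox4 and wild type cells (blue squares) for the tested genes of 3 lists: antigen presentation, interferon regulators and interferon responders. Tap1, Tap2, Tapbp and Tapbpl lie between 0.94 and 1.63 in both leukaemias, Ifngr1 and Ifngr2 lie below 0, and Ifit2 is at -1.60 in K/L and 0.63 in Sox4.

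Interferon signalling is the best known inducer of Psmb8, Psmb9 and Psmb10. Of its 13 measured of 14 receptors and regulators, 7 rose and 2 fell in K/L, and 4 rose and 2 fell in Sox4. Those are 69.2% and 46.2% of the list, the Sox4 share being near the 47.7% of all genes past the test and the K/L share set against 50.3%. Both chains of the interferon gamma receptor fell: Ifngr1 by -0.54 ± 0.10 in K/L (adjusted p = 0.00151) and -0.70 ± 0.10 in Sox4 (adjusted p = 0.000327), and Ifngr2 by -1.03 ± 0.11 (adjusted p = 5.96e-05) and -0.75 ± 0.11 (adjusted p = 0.000468). Irf2, a factor that binds the interferon-stimulated response element, rose by 2.00 ± 0.24 in K/L and 1.27 ± 0.24 in Sox4, and Irf8, a monocyte and dendritic factor, by 1.49 ± 0.41 and 4.03 ± 0.41. Without wild type array 3 the K/L difference of Irf8 was 0.88, still past the test. Stat2 rose by 0.91 ± 0.13 and 0.55 ± 0.13. Irf1, which drives Psmb9 and Tap1 in other settings, was at 0.20 ± 0.13 in K/L and -0.04 ± 0.13 in Sox4 and did not pass.

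Genes that interferon induces did not follow 1 pattern in the leukaemias. Of 12 tested of 16 responders, 5 rose and 2 fell in K/L, with a median of 0.36, and 8 rose and 0 fell in Sox4, with a median of 1.06. These are 58.3% and 66.7% of the tested list, against 50.3% and 47.7% of all genes. Oasl2 and Mx1 were below the 40th percentile on all wild type arrays, and Mx1 and Cxcl10 on all K/L arrays, so they passed the filter through other groups. Mx1 passed it only through the Sox4 arrays, so its higher Sox4 level was fixed. The counts, shares and medians of this list in every comparison take in these genes, and are in part fixed by the filter. In K/L against Sox4 cells 0 were higher and 6 lower, with a median of -0.50, where 14.1% of all genes were lower. Bst2 rose by 0.89 ± 0.12 in K/L and 1.22 ± 0.12 in Sox4, Gbp2 by 0.85 ± 0.13 and 1.16 ± 0.13, and Oas1a by 1.51 ± 0.31 and 2.65 ± 0.31. Ifit2, an RNA-binding antiviral protein, fell by -1.60 ± 0.18 in K/L (adjusted p = 6.11e-05) and rose by 0.63 ± 0.18 in Sox4 (adjusted p = 0.0156), a Sox4 call lost without Sox4 array 1 or wild type array 2. Igtp, an interferon gamma induced GTPase, rose by 0.76 ± 0.15 and 1.04 ± 0.15.

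The proteasome has partners that carry other symbols. The list held 19 symbols, older names of the same genes included, and 14 genes were measured. In K/L 3 of them rose and 2 fell, and in Sox4 3 rose and 1 fell, so that 35.7% and 28.6% passed, below the 50.3% and 47.7% of all genes. Nfe2l1, the transcription factor known to raise proteasome genes when the protease is inhibited, lay at 9.34 to 9.38 on the K/L arrays and 9.22 to 9.35 on the Sox4 arrays, against 7.83 to 8.49 on the wild type arrays. It was higher by 1.16 ± 0.15 in K/L (adjusted p = 0.000155) and 1.07 ± 0.15 in Sox4 (adjusted p = 0.000261). Ngly1, which removes sugars from that factor, was higher in K/L by 0.41 ± 0.14 (adjusted p = 0.0336) and at 0.02 in Sox4. Pomp, the chaperone that starts beta ring assembly, was lower in K/L by -0.44 ± 0.09 (adjusted p = 0.00223) and at -0.16 in Sox4 (adjusted p = 0.152). Zfand5, a proteasome-binding activator, fell by -0.48 ± 0.09 in K/L and -0.65 ± 0.09 in Sox4, and Ube3c, a ligase on the particle, rose by 0.56 ± 0.14 and 0.40 ± 0.14. With the mean of all its probe sets Ube3c was at 0.03 in K/L and 0.09 in Sox4 and no longer passed, and its Sox4 call was also lost without K/L array 1, Sox4 array 1 or 3, or wild type array 1 or 2.

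The list of ubiquitin supply and shuttle factors held 15 symbols, an older name of Ufd1 included, and 8 genes were measured under 1 symbol. Of these, 2 rose and 1 fell in K/L, and 3 rose and 1 fell in Sox4. These are 37.5% of the list in K/L and 4 of 8 in Sox4, against 50.3% and 47.7% of all genes. The shuttles Ubqln2 and Ubqln4, which carry ubiquitin-tagged proteins to the proteasome, rose by 0.82 ± 0.11 and 0.56 ± 0.15 in K/L and by 1.13 ± 0.11 and 0.87 ± 0.15 in Sox4. Rad23b, another shuttle, rose in Sox4 by 0.47 ± 0.09 (adjusted p = 0.00222) and was at 0.23 in K/L (adjusted p = 0.0596), and the Sox4 call was lost with the mean of its probe sets (0.075, adjusted p = 0.484). Ufd1, a cofactor of the unfoldase Vcp, fell by -0.71 ± 0.10 in K/L and -0.39 ± 0.10 in Sox4, and Vcp itself, at 0.13 and 0.17, did not pass.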

How the data were processed

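Per the labels' protocols, biotin-labelled cRNA made from 5 ug of total RNA was put on Affymetrix mouse arrays. The authors deposited 1 table of linear intensity values for 45101 probe sets, which run from 8 to 22474.538. Per the submitters' processing notes the tool was RMA; its version is not given in the sources used here. Intensities were log2 transformed. Probe sets were named from the platform annotation: 34958 had 1 symbol, and 932 with several and 9211 with none were left out. Testing needed 3 or more of the 9 arrays above their own 40th percentile, which left 12866 genes. limma 3.58.1 (R 4.3.3) fitted the 3 groups in all 9 arrays (degrees of freedom: 6 residual, 3.64 prior), with Benjamini-Hochberg adjustment over every tested gene and a threshold of 0.05. The smallest exact two-sided permutation p with 3 against 3 arrays is 0.1, so none is given. The script was tested on simulated data with 200 changed genes. Role groups and lists, and the members themselves, were chosen with earlier results of these data known. Named genes were the catalytic and inducible genes, up to 5 largest rises and falls among other members per comparison, members not tested or with disagreeing probe sets or alternatives, and up to 4 genes with the smallest p of each list; others were chosen after their values were seen. Alternatives changed the probe set per gene, filter, scaling, variance model, arrays in the fit and replicate block, or left out 1 array. The number of arrays limits the precision.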

Additional observations from a re-analysis of the deposited data

Results flagged for a closer look

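In K/L against Sox4 cells, 5 members passed the test of the difference between the leukaemias, and each is given here as a value. Psma6 differed by 0.44, Psme4 by 0.46 and Psmg4 by 0.42, all higher in K/L. Psmc3ip differed by -0.59, lower in K/L. Psma8 differed by -3.26 as measured, but it passed the filter only through the Sox4 arrays and its K/L values are below the 40th percentile, so its pass was fixed by the filter and only the bound holds. The probe set annotated to both Psme2 and Psme2b lay outside the tested genes and was above the wild type level by 0.59 in K/L and 0.66 in Sox4 cells.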

How the results depend on the processing

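For 25 members and 32 list genes, 3234 values were recomputed under 19 alternatives, of which 3027 kept direction and side of the threshold, 148 fell back over it, 58 passed it and 1 turned: Nfe2l2 in Sox4, 0.42, was -0.23 with the mean of all its probe sets. The inducible genes minus the other members was 0.99 in Sox4 against wild type, and -0.030 in K/L against Sox4 (0.04 as reported), with only genes above the 40th percentile on all 9 arrays, which leaves out Psma8. Fitting only the 6 arrays compared gave 8 members and 25 list genes past the test in K/L against Sox4, in place of 5 and 16; the cause was not tested. Leaving out 1 array gave 12 to 19 members in K/L and 14 to 18 in Sox4 against wild type, and 3 to 8 members and 9 to 22 list genes in K/L against Sox4. In that comparison the split of members was 5 higher and 2 lower with arrays centred on the median, where 63.4% of calls over all genes were higher against 51.1% as reported, and 3 and 3 with quantile normalization, where 55.6% were. The mean of all probe sets ended the K/L against Sox4 call of Psme4 (0.08, adjusted p = 0.594), a mean that takes in its 3 dim probe sets. The replicate numbers do not pair the arrays: the 9 correlations of same-numbered arrays lay between -0.022 and 0.0777. With the replicate number as a block, 18, 16 and 5 members passed in K/L against wild type, Sox4 against wild type and K/L against Sox4.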

Other observations

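Several members were read by probe sets at very different levels that differed by unlike amounts. For Psmg2, 1 probe set was lower by -1.68 in K/L and -1.15 in Sox4, where the probe set with the highest mean had -0.34 and -0.05. For Psmc6, 1 probe set was lower by -1.42 in K/L and -0.91 in Sox4, where the probe set with the highest mean had -0.42 and -0.36. Probe sets other than the one used were lower past the test for Psmd6 (-0.32 in K/L) and Psmd7 (-0.41 in Sox4). The same held for Psmg3 (-0.41 in K/L and -0.47 in Sox4). Such a probe set was higher past the test for Psmd13 (0.81 in K/L), and was above the filter's percentile on 6 arrays. A dim probe set of Psmd9 was above it on 5 arrays, all leukaemic, and below it on every wild type array. Its higher Sox4 level was thus favoured by the filter, and no difference is given for it. On the probe set used, Psmd6, Psmd7, Psmg3, Psmd13 and Psmd9 passed in neither leukaemia. The members lie on 16 chromosomes, and 22 of the 49 have 1 probe set, so this comparison is not open to them.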
